A study of Homo sapiens with 2 samples.

Results

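Genes of chromatin remodelers and histone-modifying enzymes were compared between MCF-10A cells given a small interfering RNA (siRNA) against SCTR and MCF-10A cells given a negative control siRNA. The genes were chosen by the letters of their platform symbol, namely KDM, KMT2, KMT5, HDAC, SIRT, SETD, BRD, CHD, ARID, SMARC, EHMT and the KAT acetyltransferases. In all, 104 probes of the authors' processed data carried such a symbol, for 84 symbols, and 95 probes of 78 symbols passed the detection limit (p below 0.01 on either array). The detection p of a bead array compares a probe with the negative control probes of the same array. The non-coding BRD3OS and the pseudogene BRD7P3 matched the letters without being chromatin enzymes and are given apart, which leaves 76 genes with 93 probes, of 9427 named genes detected on at least 1 array. In RefSeq, 110 protein-coding genes carry such symbols and 81 of them had a named probe in the processed table. Of these 81, the 5 that were not detected are KMT5C, EHMT2, CHD3, KDM5C and SETD7. The processed table holds 16871 of the 47323 probes, and detection of the genes without a named probe in it was not checked. KMT5C lay just outside the limit with a lowest detection p of 0.0104, and HDAC9 just inside it with 0.0078 on both arrays. The choline dehydrogenase CHDH, which also matched the letters, was not detected either, with a lowest detection p of 0.0247.

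MCF-10A is a non-tumorigenic line of human mammary epithelial cells, and SCTR is the gene of the receptor for secretin, which raises cyclic AMP in the cell. The study made total RNA of both transfections into biotin-labelled cRNA and hybridised it to Illumina bead arrays, with 1 array in each group, called the SCTR array and the control array here. The dose of the siRNAs, their sequences, the time after transfection and the number of cultures behind each array are not stated in the labels. With 1 array a group there is no spread between replicates and no test, so each difference below compares these 2 arrays. The named probes of SCTR in the processed table numbered 0, so the effect on SCTR itself was not checked, and directions rest on the labels.

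Chromatin enzymes work on the histone proteins around which DNA is wound. Acetyltransferases and deacetylases add and remove acetyl groups on lysines, and bromodomain proteins bind the acetylated form. Methyltransferases and demethylases do the same with methyl groups, where methylation of lysine 4 of histone H3 (H3K4) is found at active promoters and enhancers and that of lysine 9 (H3K9) in silent chromatin. Remodelers of the SWI/SNF, ISWI and CHD families use ATP to slide or evict nucleosomes.

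As a whole, the chromatin genes differed between the arrays about as often as other genes, and the classes differed in which way they leaned. Most deacetylases were lower on the SCTR array, most CHD remodelers were higher, and methyltransferases and SWI/SNF genes went both ways. Both arrays detected 73 of the genes. Of these, 13 were higher on the SCTR array by 1.5-fold or more, as were 19.5% of all 8661 named genes, and 18 were lower by as much, as were 22.6% of all genes. Their median log2 difference was -0.20 (range -2.13 to 1.10, SD over genes 0.72), and that of all genes was -0.09 (SD over genes 0.80). At 2-fold, 4 were higher and 8 lower, against 9.73% and 8.44% of all genes. Differences are log2 levels on the SCTR array minus those on the control array, after background correction and quantile normalization, and each gene is represented by its brightest probe detected on both arrays.

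**Figure D1:**
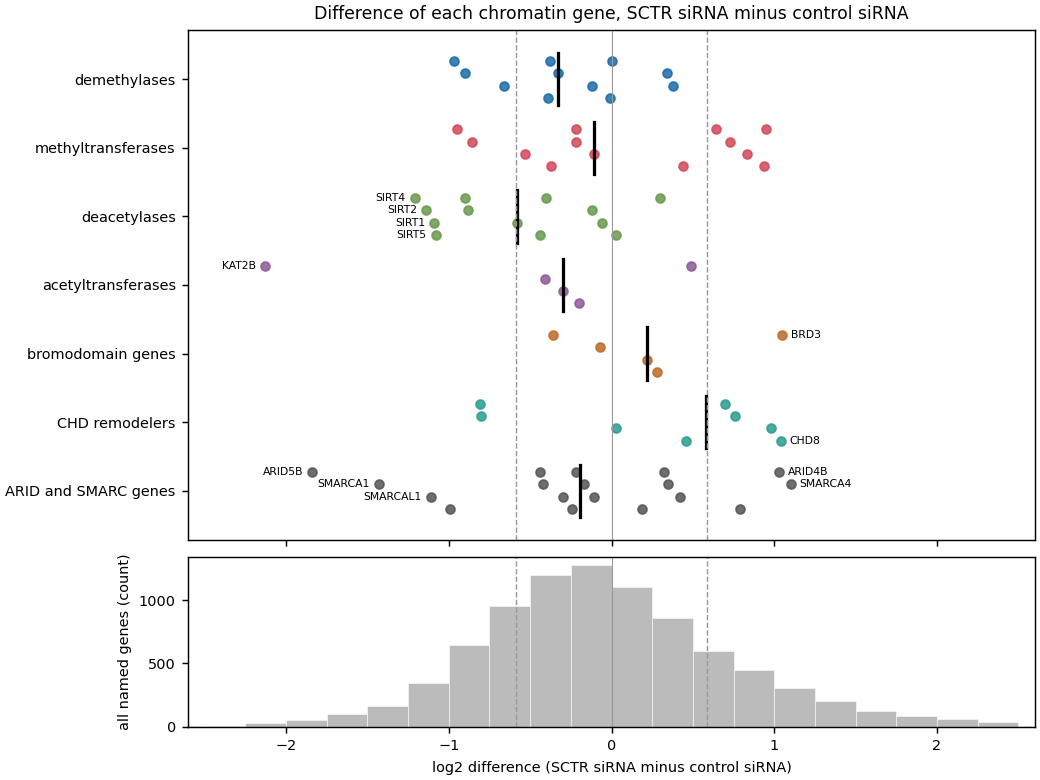
Log2 difference of each of the 73 chromatin genes (points) by class, SCTR siRNA minus control siRNA, with the class median as a black bar and the genes at least 2-fold apart named, above a histogram of the differences of all 8661 named genes, whose outermost values lie beyond the axis. Dashed lines mark 1.5-fold. The medians run from -0.58 in deacetylases to 0.58 in CHD remodelers, and KAT2B (-2.13) and ARID5B (-1.84) lie furthest out.

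The array facts that touch these values are few. Median intensities were 122 on the control array against 124 on the SCTR array, with 32.2% and 33.5% of 47316 probes detected. Among 14 proliferation genes 11 were measured, of which 0 were higher by 1.5-fold and 8 lower, with a summed intensity of 7647 on the control array and 4869 on the other. Of 12 basal mammary markers, 6 were measured and all 6 were higher by 1.5-fold or more on the SCTR array, with summed intensities of 33222 and 76413, while KRT5, KRT14 and TP63 had no named probe. Of 8 luminal markers 3 were measured, with 1 higher by that much. Of the immune markers CD14 was detected, at a level of 11.92 and 13.70. Most markers of other cell types had no named probe in the processed table (6 of 7 for fibroblasts, 4 of 4 for endothelium and 3 of 5 for immune cells). That table holds 16871 of the 47323 probes, and the markers were not sought among the rest. Whether they were detected is thus not known here. The part of these shifts in the results below was not tested, and in bulk RNA fewer cells of a type and less RNA per cell cannot be told apart.

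Another probe of the same gene gives a check on a single value, though not on the spread between cultures. For the 10 chromatin genes with 2 or more probes detected on both arrays, the differences of the 2 brightest probes lay a median of 0.17 apart on the log2 scale, and 9 of the 10 agreed in sign. Over all 1902 genes with such probes the median gap was 0.19, and the 90th percentile was 0.70.

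**Figure D2:**
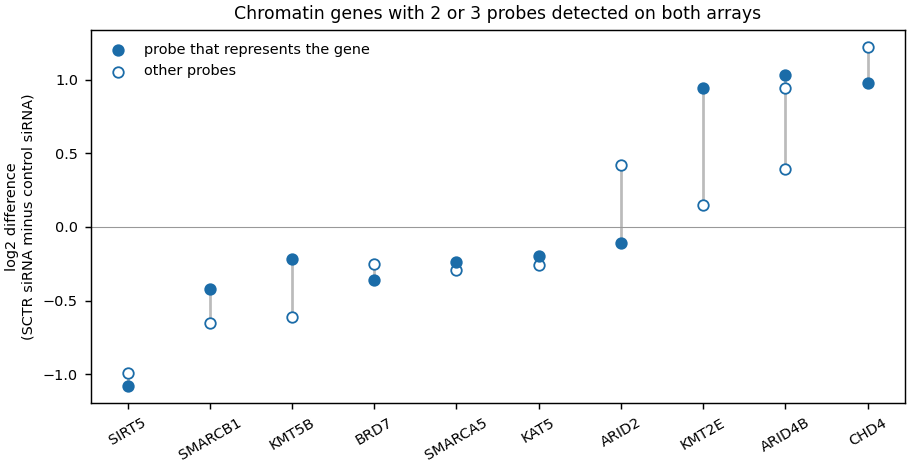
Log2 difference (SCTR siRNA minus control siRNA) by probe for the 10 chromatin genes with 2 or 3 probes detected on both arrays. Filled points are the probe that represents the gene and open points its other probes. The probes of SIRT5 (-1.08 and -0.99) and CHD4 (0.98 and 1.22) share their sign, the probes of ARID2 differ in sign, and those of KMT2E differ most in size (0.94 and 0.15).

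The stretches just upstream of the gene starts are shown for the 7 chromatin genes at least 2-fold apart whose listed start is also the outermost start of the gene, so that the letters can be read beside the differences. They are the 250 bases before the start, 5' to 3' in the direction of the gene, taken from RefSeq (GRCh38.p14). Capitals mark TGACG or its reverse complement CGTCA, the core of the cyclic AMP response element (CRE), to which the transcription factor CREB binds. KAT2B lies at chr3:20040196-20040445 on the plus strand, ARID5B at chr10:61901449-61901698 on the plus strand and SMARCA1 at chrX:129523491-129523740 on the minus strand. SMARCAL1 lies at chr2:216412234-216412483 (plus), SIRT1 at chr10:67884406-67884655 (plus), SIRT2 at chr19:38899619-38899868 (minus) and SMARCA4 at chr19:10960780-10961029 (plus).
KAT2B: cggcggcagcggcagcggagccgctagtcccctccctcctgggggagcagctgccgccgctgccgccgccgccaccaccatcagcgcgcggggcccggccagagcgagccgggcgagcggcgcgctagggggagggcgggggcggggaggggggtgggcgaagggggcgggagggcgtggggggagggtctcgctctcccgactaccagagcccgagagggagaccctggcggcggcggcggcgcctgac
ARID5B: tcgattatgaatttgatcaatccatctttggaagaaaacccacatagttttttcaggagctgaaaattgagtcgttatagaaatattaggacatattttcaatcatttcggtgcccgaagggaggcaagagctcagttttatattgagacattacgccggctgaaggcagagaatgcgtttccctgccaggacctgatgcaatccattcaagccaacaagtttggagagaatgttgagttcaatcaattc
SMARCA1: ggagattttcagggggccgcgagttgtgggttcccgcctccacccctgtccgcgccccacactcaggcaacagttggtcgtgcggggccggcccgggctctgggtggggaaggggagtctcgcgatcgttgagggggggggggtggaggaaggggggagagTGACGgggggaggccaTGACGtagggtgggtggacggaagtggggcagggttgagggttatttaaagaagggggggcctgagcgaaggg
SMARCAL1: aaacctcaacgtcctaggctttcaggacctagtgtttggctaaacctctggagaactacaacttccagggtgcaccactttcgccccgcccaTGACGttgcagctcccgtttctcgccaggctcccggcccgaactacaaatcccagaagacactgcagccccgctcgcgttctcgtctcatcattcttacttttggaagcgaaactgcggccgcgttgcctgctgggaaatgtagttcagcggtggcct
SIRT1: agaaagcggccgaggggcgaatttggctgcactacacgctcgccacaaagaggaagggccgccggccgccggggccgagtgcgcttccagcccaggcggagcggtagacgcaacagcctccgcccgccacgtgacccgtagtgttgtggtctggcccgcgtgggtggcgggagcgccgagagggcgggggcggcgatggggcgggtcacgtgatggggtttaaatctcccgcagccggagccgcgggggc
SIRT2: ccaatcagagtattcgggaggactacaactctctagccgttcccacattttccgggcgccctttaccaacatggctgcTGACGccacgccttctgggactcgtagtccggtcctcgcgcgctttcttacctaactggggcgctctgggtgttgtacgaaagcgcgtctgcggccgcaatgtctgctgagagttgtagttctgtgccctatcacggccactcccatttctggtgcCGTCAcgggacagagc
SMARCA4: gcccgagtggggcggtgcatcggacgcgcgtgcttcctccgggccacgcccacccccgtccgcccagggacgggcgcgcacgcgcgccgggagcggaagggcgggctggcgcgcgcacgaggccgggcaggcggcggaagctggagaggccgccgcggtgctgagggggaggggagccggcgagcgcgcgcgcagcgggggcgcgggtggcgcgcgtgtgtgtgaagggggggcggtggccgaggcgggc

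Among these 7 stretches the core occurred in those of 3 genes. All 3 were lower on the SCTR array, but so was every gene shown except SMARCA4, so the direction is no result. The window of CHD4, which was higher, held 1 core and is not shown because its listed start is not the outermost. SMARCA1 held 2 copies that begin 89 and 73 bases upstream of the start, SIRT2 held 2 at 172 and 16 bases, and SMARCAL1 held 1 at 158 bases. The stretches of KAT2B and ARID5B, the genes furthest below 0, held 0 copies and differed in composition, with 80.8% G and C in KAT2B and 40.4% in ARID5B. Searched on both strands of the most upstream listed window, the core was present in 15 of the 65 chromatin genes that the sequence table holds (23.1%) and in 21.6% of 27305 genes. By call, it was present in 6 of 17 genes past 1.5-fold downward, 6 of 34 within 1.5-fold, 1 of 12 past it upward and both with a window among those detected on 1 array. All genes were not split by direction, and the motif was chosen after the differences were seen. A link of the core to direction was not tested. The full element TGACGTCA, which contains the core on both strands, was found in 1 chromatin gene, SIRT4 (1.54%), and in 1.75% of all. The GC box GGGCGG was present in 67.7% of the chromatin genes and 42.2% of all, whose median G and C contents were 68.8% and 57.6%. A match is a description of letters and no evidence of binding.

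Deacetylases leaned lower on the SCTR array. Among 13 measured, 0 passed 1.5-fold upward and 6 downward (46.2%), against 19.5% and 22.6% of all genes. In the authors' values 5 passed it downward, against 16.3% of all genes. Negative differences numbered 11 of the 13, and 9 with median scaling, against 4805 of all 8661 genes. The median of the deacetylases was -0.58 (range -1.21 to 0.30), against -0.09 over all genes. It was -0.29 with no background removed and -0.26 in the authors' values. The sirtuins, deacylases that need NAD, held the 4 largest of these differences in the main values and with median scaling. With an offset of 50, with no background removed and in the authors' values, HDAC1 and HDAC3 lay further below 0 than SIRT2. HDAC1 and HDAC3 also lay further below 0 than SIRT4 with no background removed and in the authors' values. SIRT4, of mitochondria, had a log2 level of 7.99 on the control array against 6.78 on the SCTR array, a 2.32-fold difference (-1.21). For the mainly cytoplasmic tubulin and histone deacetylase SIRT2 the levels were 7.23 and 6.09 (-1.14). The nuclear enzyme SIRT1, which acts on histones and on p53, was at 9.54 and 8.44 (-1.09).

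SIRT5, a mitochondrial enzyme that removes succinyl and malonyl groups, was at 10.42 and 9.35 (-1.08, 2.11-fold), and its second probe gave -0.99. Another SIRT5 probe was not detected on either array. SIRT7, a nucleolar member, went the other way at 6.45 and 6.75 (0.30) and was dim on both arrays. The SIRT2 probe had little signal over background on the SCTR array (detection p of 0.0078), and the difference shrank to -0.59 when no background was removed and to -0.56 in the authors' values. SIRT4 was at -0.74 in the authors' values, SIRT1 at -0.90 and SIRT5 at -0.96, so all 4 were lower in each of the treatments of the values.

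Among the zinc-dependent deacetylases the class I enzymes split. HDAC1, a catalytic subunit of the NuRD, SIN3 and CoREST corepressors, had a level of 12.53 on the control array against 11.64 on the SCTR array (-0.90, 1.86-fold). HDAC3, the enzyme of the NCOR corepressor, was at 10.85 and 9.97 (-0.88, 1.84-fold). HDAC2, the close paralog of HDAC1 in the same complexes, was at 11.92 and 11.95 (0.03), and HDAC8 at 7.35 and 6.91 (-0.44). HDAC1 and HDAC3 were far above background on both arrays and kept their values in the authors' table (-0.89 and -0.82). The others were within 1.5-fold, with HDAC11 at -0.58, the tubulin deacetylase HDAC6 at -0.40, HDAC7 at -0.12 and HDAC9 at -0.06.

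The acetyltransferases held the largest difference of all 73 genes in the main values. KAT2B (PCAF), an acetyltransferase that coactivates transcription, had an intensity of 1201 on the control array against 357 on the SCTR array. Its log2 levels were 10.14 and 8.01, a 4.37-fold difference (-2.13), and 44 of the 8661 genes had a lower one. With no background removed it was -1.80, and the authors' values gave -1.76. The paralog KAT2A (GCN5), which takes the same place in the SAGA and ATAC complexes, was at 10.24 and 9.94 (-0.30). KAT6A, of the MYST family, was the only member above 0 at 9.79 and 10.28 (0.49), while KAT8, which acetylates lysine 16 of histone H4, was at 8.85 and 8.44 (-0.41). KAT5 (TIP60), the enzyme of the NuA4 complex, was at -0.20 by one probe and -0.26 by the other. KAT7 was detected on the control array only, with intensities of 164 and 154 and a difference of -0.14 in the authors' values. Of the 5 acetyltransferases measured on both arrays KAT2B alone passed 1.5-fold (20% lower, against 22.6% of all genes), and the median was -0.30. In the authors' values ARID5B, at -1.78, lay further below 0 than KAT2B.

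Of 5 bromodomain genes, readers of acetylated lysine, 1 passed 1.5-fold upward (20%) and 0 downward, with a median of 0.22. The shares of all genes were 19.5% and 22.6%. BRD3, of the BET family, had a level of 7.70 on the control array against 8.76 on the SCTR array (1.05, 2.07-fold), and was at 0.82 in the authors' values. BRD2, of the same family, was at 11.91 and 12.13 (0.22). The SWI/SNF subunits BRD9 and BRD7 were at 0.28 and -0.36, the latter with -0.25 by its second probe, and BRD10 was at -0.07. Another BRD10 probe was detected on the SCTR array only, a filter that favours a higher value there. It gave 0.62, and 0.27 in the authors' values. BRD3OS, the non-coding gene on the opposite strand next to BRD3, was at 8.13 and 7.92 (-0.21). BRD7P3, a pseudogene related to BRD7, was at 7.04 and 6.35 (-0.69, and -0.34 in the authors' values), and whether its probe also binds BRD7 transcripts was not tested.

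**Figure D3:**
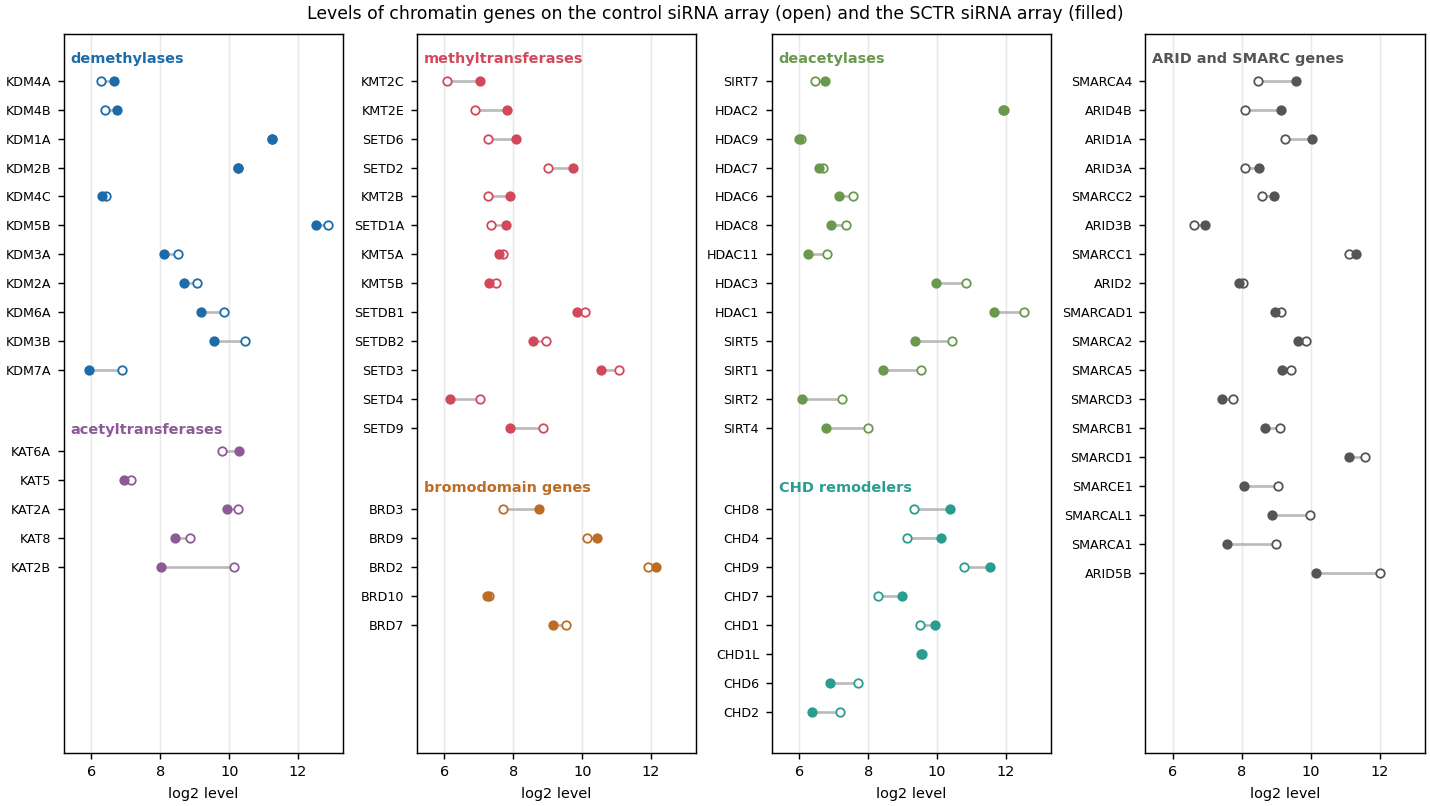
Log2 level of each chromatin gene on the control siRNA array (open) and the SCTR array (filled), by class and in order of the difference. Levels of different probes are not comparable with each other. The filled points of SIRT1, SIRT2, SIRT4 and SIRT5 lie left of the open ones, and those of CHD4, CHD7, CHD8 and CHD9 lie right of them.

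Methyltransferases went both ways. Among 13 measured on both arrays, 5 passed 1.5-fold upward (38.5%) and 2 downward (15.4%), against 19.5% and 22.6% of all genes. Without background correction these counts were 2 and 1, against 16% and 17% of all genes. In the authors' values they were also 2 and 1, against 16.5% and 16.3% of all genes. The median was -0.11 (range -0.95 to 0.95). The median turned positive when KMT2A and SETD1B, kept through the SCTR array alone, entered. It was 0.14 with them at their bound and 0.29 with no further detection filter on these 15 kept genes. The undetected KMT5C, EHMT2 and SETD7 did not enter. Of the H3K4 group, the KMT2 and SETD1 genes, all 4 measured on both arrays had positive differences. KMT2C (MLL3), which methylates H3K4 at enhancers, had a level of 6.09 on the control array against 7.04 on the SCTR array (0.95, 1.94-fold). KMT2E (MLL5), a KMT2 family member with little or no activity of its own, was at 6.88 and 7.82 (0.94), but its second probe gave 0.15. KMT2B, of promoters, was at 7.26 and 7.90 (0.64), and SETD1A at 7.35 and 7.79 (0.44).

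KMT2A (MLL1) and SETD1B passed the detection limit through the SCTR array alone, a filter that favours a higher value there, and are no support for the direction of the group. KMT2A had an intensity of 136 on the control array (detection p of 0.0494) and 199 on the SCTR array (0.0026). Its level was at least 1.52-fold higher on the background-corrected scale, but the log2 difference was 0.48 with no background removed and 0.49 in the authors' values, so that the fold is a bound on the corrected scale alone. SETD1B had intensities of 148 and 169. The KMT2C probe that represents the gene had intensities of 157 (detection p of 0.0078) and 233. All of these genes were dim, and in the authors' values KMT2C was at 0.49, KMT2B at 0.45 and KMT2E at 0.61.

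SETD2, a histone H3 methyltransferase that works along transcribed genes, had intensities of 591 and 953 (0.73, 1.66-fold) and stayed at 0.65 in the authors' values. SETD6, a methyltransferase of the NF-kB subunit RELA, was at 7.26 and 8.09 (0.83). On the lower side were SETD9 at 8.85 and 7.90 (-0.95) and SETD4 at 7.02 and 6.17 (-0.86), the latter at -0.41 in the authors' values. The actin histidine methyltransferase SETD3 was at 11.07 and 10.54 (-0.53). Its other probe, dim and detected on the control array only, gave -1.09, and -0.47 in the authors' values. The H3K9 enzymes SETDB1 (-0.22) and SETDB2 (-0.37) and the H4K20 enzymes KMT5A (-0.11) and KMT5B (-0.22, second probe -0.61) were all within 1.5-fold by the probe that represents each gene.

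Demethylases passed 1.5-fold downward about as often as other genes. Among 11 measured, 3 passed it downward (27.3%, against 22.6% of all genes) and 0 upward, against 19.5% of all genes. In the authors' values 1 passed it downward and 0 upward, against 16.3% and 16.5% of all genes. The demethylases had a median of -0.33 (range -0.97 to 0.38) and 8 negative differences. All 8661 genes had a median of -0.09 and 4805 negative differences. KDM3B, an H3K9 demethylase, was at 10.46 on the control array against 9.55 on the SCTR array (-0.90, 1.87-fold), while its paralog KDM3A, a hypoxia-inducible gene, was at 8.50 and 8.11 (-0.38). KDM6A (UTX), which removes methyl groups from lysine 27 of histone H3, was at 9.86 and 9.19 (-0.66), and at -0.55 in the authors' values. KDM7A, which acts on H3K9 and H3K27, was at 6.90 and 5.93 (-0.97), with little signal over background there (detection p of 0.0091), and at -0.44 in the authors' values.

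Both H3K4 demethylases measured were within 1.5-fold. KDM5B, a demethylase of trimethylated H3K4 known from luminal breast cancers, was at 12.86 and 12.52 (-0.33), and KDM1A (LSD1), of the CoREST complex, was at 11.24 on both arrays (0.00). The histone H3 demethylases KDM2A and KDM2B were at -0.39 and -0.01. Another KDM2B probe, dim and detected on the control array only, gave -0.78, and -0.30 in the authors' values. KDM4A (0.38) and KDM4B (0.34) were the members furthest above 0, at levels near background on both arrays, and KDM4C was at -0.12.

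CHD remodelers were mostly higher on the SCTR array. Among 8 measured, 4 passed 1.5-fold upward (50%) and 2 downward (25%), against 19.5% and 22.6% of all genes. With no background removed these counts were 3 and 0, against 16% and 17% of all genes. The median was 0.58 (range -0.81 to 1.04), with 6 positive differences. CHD8, a remodeler that binds beta-catenin, had an intensity of 730.5 on the control array against 1436 on the SCTR array, with levels of 9.34 and 10.38 (1.04, 2.06-fold). CHD4, the ATPase of the NuRD complex, was at 9.13 and 10.11 (0.98, 1.97-fold), and its second probe gave 1.22. CHD9 was at 10.78 and 11.54 (0.76), CHD7, which binds enhancers, at 8.29 and 8.99 (0.70), CHD1, a reader of methylated H3K4, at 9.49 and 9.95 (0.46), and CHD1L at 9.52 and 9.55 (0.03).

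CHD2 and CHD6 went the other way. CHD2 was at 7.17 and 6.36 (-0.81) and CHD6 at 7.70 and 6.90 (-0.80). Both are dim genes, and in the authors' values they were at -0.41 and -0.47, within 1.5-fold. In the 5 CHD genes whose mean level was 9 or more, all differences were positive, with a median of 0.76. The NuRD enzymes measured thus went 3 ways, with CHD4 at 0.98, HDAC1 at -0.90 and HDAC2 at 0.03.

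ARID and SMARC genes went both ways, about as often as other genes. Among 18 measured, 3 passed 1.5-fold upward (16.7%) and 4 downward (22.2%), against 19.5% and 22.6% of all genes. The median was -0.20 (range -1.84 to 1.10). SMARCA4 (BRG1), an ATPase of SWI/SNF, had a level of 8.48 on the control array against 9.58 on the SCTR array (1.10, 2.14-fold), the largest positive difference of the 73 genes in the main values. SMARCA2 (BRM), the alternative ATPase of the same complexes, was at 9.87 and 9.64 (-0.22). The ISWI ATPase SMARCA1 (SNF2L) had intensities of 591 and 291 and a level of 7.57 on the SCTR array (-1.43, 2.7-fold), and its paralog SMARCA5 (SNF2H) at 9.41 and 9.17 (-0.24, second probe -0.29).

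Of the other SWI/SNF subunits, ARID1A and SMARCE1 passed 1.5-fold in opposite directions. ARID1A, the DNA-binding subunit of the BAF form, was at 9.24 and 10.03 (0.79, 1.73-fold), and SMARCE1 at 9.06 and 8.07 (-0.99, 1.99-fold). SMARCC1 (0.19), SMARCC2 (0.35), SMARCD1 (-0.44), SMARCD3 (-0.30) and SMARCB1 (-0.42, second probe -0.65) were within 1.5-fold. ARID2, of the PBAF form, was at -0.11, and its second probe at 0.42 had the opposite sign. In all 12 SWI/SNF subunits of the list, BRD7 and BRD9 included, had a median of -0.16. Of them 2 passed 1.5-fold upward (16.7%) and 1 downward (8.33%), against 19.5% and 22.6% of all genes.

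The remaining genes of this class belong to other complexes. ARID5B, a DNA-binding partner of the demethylase PHF2, had intensities of 4152 and 1255, far above background, and levels of 12.00 and 10.16 (-1.84, 3.58-fold), and 88 of all genes had a lower difference. Its value was -1.78 in the authors' table. SMARCAL1, an annealing helicase of stalled replication forks, was at 9.98 and 8.87 (-1.11, 2.16-fold), and SMARCAD1, which acts at replication and DNA breaks, at 9.12 and 8.95 (-0.17). ARID4B, a subunit of the SIN3 corepressor, was at 8.09 and 9.12 (1.03), with other probes at 0.94 and 0.39. ARID3A (0.42) and ARID3B (0.32), DNA-binding factors, were within 1.5-fold.

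**Figure D4:**
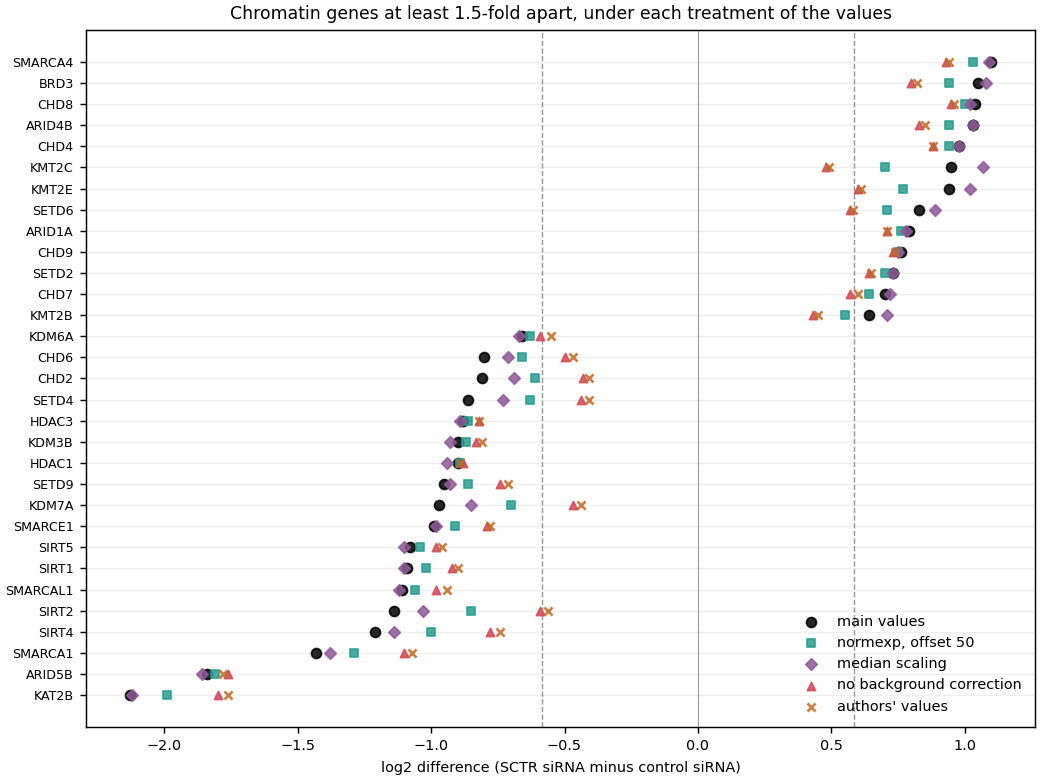
Log2 difference (SCTR siRNA minus control siRNA) of the 31 chromatin genes at least 1.5-fold apart, in the main values and in 4 other treatments of the same probes. Dashed lines mark 1.5-fold. All 31 keep their sign, and 21 lie beyond a dashed line in every treatment, with KMT2C, KDM7A, SIRT2, CHD2 and SETD4 among those that move most.

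Of the 31 genes past 1.5-fold, 21 were past that limit in the same direction with no background correction, with an offset of 50, with median scaling and in the authors' values, 9 of them higher and 12 lower. Those higher were SMARCA4, BRD3, CHD8, ARID4B, CHD4, KMT2E, ARID1A, CHD9 and SETD2. When all probes of a gene were averaged, KMT2E came to 0.54, within 1.5-fold. Those lower were KAT2B, ARID5B, SMARCA1, SIRT4, SMARCAL1, SIRT1, SIRT5, SMARCE1, SETD9, HDAC1, KDM3B and HDAC3. The other 10 kept their sign but came within 1.5-fold in at least 1 treatment. How many of all genes stayed past 1.5-fold in every treatment was not counted. These counts thus cannot be set against those of other genes.

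Partner genes outside these families were counted from lists of 99 genes, 68 of which were measured on both arrays. Upward 13 passed 1.5-fold (19.1%) and downward 12 (17.6%), against 19.5% and 22.6% of all genes. The median was -0.02, against -0.09 over all genes. The same shares of all genes stand beside the counts of each list below. Among the 10 genes listed as subunits of KMT2 complexes, all measured, 2 were higher and 2 lower. The cofactor HCFC1 was at 1.59 (9.85 and 11.44), the core subunits ASH2L at -1.06 and DPY30 at -0.70, and NCOA6 at 0.70. Corepressor and NuRD subunits had a median of -0.34 over 13, with 3 higher and 4 lower, and the largest were TBL1X (-1.55) and RCOR3 (-1.16), of the NCOR and CoREST complexes, MTA3 (-1.07) and SAP30 (-0.92). Polycomb and other methyltransferases had 2 higher and 2 lower of 16, with RBBP4 at 1.12, PRMT2 at -0.98, PRMT6 at -0.97 and NSD1 at 0.77, and the Polycomb methyltransferase EZH2 at 0.01.

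Other acetyltransferases and acetyl readers had 2 higher and 1 lower of 9, with the coactivators NCOA1 at -1.25 and CREBBP at 0.75, the ISWI partner BAZ1A at 1.08 and ATAD2 at -0.58. Other remodeler subunits had 2 higher and 3 lower of 18, with the NuA4 ATPase EP400 at 1.37 (6.98 and 8.35), BCL7C at levels of 7.97 and 6.98, and RUVBL2 and INO80B at differences of -0.68 and -0.67. Of the DNA methylation genes, the maintenance methyltransferase DNMT1 was at 1.02 (9.75 and 10.77) and its recruiter UHRF1 at 0.62, the only 2 of 7 measured on both arrays.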

How the data were processed

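RNA of MCF-10A cells was measured on 2 Illumina bead arrays, 1 for each siRNA. The deposited non-normalized table gives an intensity and a detection p-value for each of 47323 probes, of which 47316 have a signal, and the submitters' processing notes list GenomeStudio 2011.1. The authors' processed table holds log2 levels of 16871 probes, which correlate with the log2 intensities at r = 1.00 on both arrays. How they were normalized is not stated per the labels. Symbols came from platform annotation (13060 probes with 1 symbol, 10161 symbols), and 13054 gene IDs matched RefSeq with 0 symbols changed.

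In limma 3.58.1 under R 4.3.3, normexp removed background using control-probe means and SDs that nec estimates from detection p-values. After an offset of 16, the arrays were quantile normalized and put on the log2 scale. Where several probes of a gene passed 0.01 on both arrays, the brightest stood for it, for 8661 genes in all. Differences of 1.5-fold or more were counted, with no test. For a gene detected on 1 array, the fold is a bound, taken against the dim probe's level or, if higher, the lowest detected level of that array (6.04 on the control array, 5.91 on the other). Any of the genes could be named, with full values for those 2-fold apart, the brightest and the 4 largest differences of each class and the genes detected on 1 array. Steps were tested on simulated data. The genes and lists were chosen with earlier results of these data known. The choice of promoters and motifs was made after the differences were seen. Detection p-values move in steps of 0.0013, and precision is limited by having so few arrays.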

Additional observations from a re-analysis of the deposited data

How the results depend on the processing

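Alternatives changed the background correction, the scaling, the source of the values, the detection filter and the probe summary. They also changed the fold, the level minimum and the treatment of genes detected on 1 array. The tolerance was 0.20 on the log2 scale. It is a robust SD for the difference of 1 probe, estimated from the gaps between 2 probes of the same gene over all genes. The counts of 13 genes higher and 18 lower became 9 and 14 with no background removed, where the shares of all genes were 16% and 17%. In the authors' values they were 10 and 12, against 16.5% and 16.3% of all genes. At 2-fold they were 4 and 8, against 9.73% and 8.44% of all genes. The 32 genes whose mean level was 9 or more are a smaller set. Among them the counts were 6 and 8, against 20.4% and 21.3% of all genes at that level. The median of the deacetylases (-0.58) was -0.29 without background correction, -0.26 in the authors' values and -0.89 over the 4 members above that level. The median of the methyltransferases (-0.11) turned positive when the genes detected on 1 array entered, at 0.29 with a detection p under 0.05 or no detection filter and at 0.14 with those genes at their bound. Medians of the other 5 classes moved by no more than the tolerance in each alternative. No named gene past 1.5-fold changed sign. The median of all genes was -0.08 with median scaling and -0.05 in the authors' values, against -0.09. No paired analysis was possible because each group has 1 array, and for the same reason no array could be left out. Without background correction SIRT2 became -0.59, KDM7A -0.47, KMT2C 0.48 and SIRT4 -0.78, and with probes averaged KMT2E became 0.54.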

Other observations

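Gene span, taken as the length of the RefSeq gene (GRCh38.p14), followed the difference only weakly across genes, which are not independent replicates. Over the 73 chromatin genes Spearman's rho was 0.14 (Pearson's r 0.08), and over 8660 named genes with a length it was 0.07 (Pearson's r 0.05). With the authors' values the rho was 0.14 and 0.08. The mean level was also nearly unrelated to the difference, with a rho of -0.01 over the chromatin genes and 0.04 over all genes.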
